A study of Mus musculus with 12 samples.

Results

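The genes described here are 9 markers of the first neurons of the cerebral cortex, namely Reln, Calb2, Lhx1, Tbr1, Neurod1, Neurod2, Neurod6, Bcl11b and Fezf2. They were chosen by symbol, as every probe set that the platform annotation ties to 1 of these genes alone. All 9 were measured, on 15 of the 45037 probe sets, among 17097 genes in all.

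RNA from embryonic mouse brain of mixed background was hybridised to 12 arrays in 4 groups of 3. In the YAP experiment, TetO-YAP1;Nes-rtTA embryos were compared with Nes-rtTA embryos at E11.5 in forebrain and midbrain. TetO-YAP1 is a doxycycline-dependent allele of YAP1-S127A, a mutated form of the Hippo pathway's co-activator, and Nes-rtTA places its driver under the Nestin promoter of neural progenitors, so both groups carried the driver, and the dams received doxycycline at 200 mg/kg of food from E7.5. In the Nf2 experiment, Nf2F/F;Emx1-Cre embryos were compared with Nf2F/+;Emx1-Cre embryos at E13.5 in dorsal telencephalon. Emx1-Cre acts in the telencephalon, so the controls carried Cre and lacked 1 copy of Nf2, the gene of the Hippo regulator Merlin, in the same cells. The 4 groups are called YAP overexpression, YAP control, Nf2 knockout and Nf2 control.

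In the developing cortex, progenitors next to the ventricle leave the cycle and send neurons outward. The first of these form the preplate, which holds Cajal-Retzius cells and the future subplate neurons, and the later ones form the layers beneath the Cajal-Retzius cells. Cajal-Retzius cells secrete reelin, the glycoprotein that guides the placement of later neurons, and NeuroD factors act after the neurogenins in the commitment of neurons. Several of the 9 genes are also used outside the cortex, for example Bcl11b in the striatum, Lhx1 in diencephalon and midbrain, and Calb2 and Reln in many types of neuron, and the E11.5 tissue included such regions.

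Promoter windows of the preplate genes Tbr1 and Reln, of Neurod1 and of its relative Neurod2 are shown. Neurogenins and NeuroD factors bind certain E-boxes, which are sites of the form CANNTG, and these windows hold matches to that form. The form alone does not tell which factors bind a match. Tbr1, Reln and Neurod1 fell with YAP overexpression, and Neurod2 was not called. RefSeq windows of GRCm38.p6 were matched for 8 of the 9 genes, all but Calb2, and the 250 bases before the annotated start were searched. The windows are those of Tbr1 (chr2:61804203-61804452, plus strand), Reln (chr5:22344706-22344955, minus strand), Neurod1 (chr2:79456637-79456886, minus strand) and Neurod2 (chr11:98329646-98329895, minus strand), 5′ to 3′ on the strand of the gene, with matches to CANNTG in capitals.
Tbr1: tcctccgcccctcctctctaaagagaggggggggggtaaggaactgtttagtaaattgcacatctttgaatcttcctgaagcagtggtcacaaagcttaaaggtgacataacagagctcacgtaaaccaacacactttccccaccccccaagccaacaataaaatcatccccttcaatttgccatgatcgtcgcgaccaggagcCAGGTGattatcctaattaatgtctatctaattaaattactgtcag
Reln: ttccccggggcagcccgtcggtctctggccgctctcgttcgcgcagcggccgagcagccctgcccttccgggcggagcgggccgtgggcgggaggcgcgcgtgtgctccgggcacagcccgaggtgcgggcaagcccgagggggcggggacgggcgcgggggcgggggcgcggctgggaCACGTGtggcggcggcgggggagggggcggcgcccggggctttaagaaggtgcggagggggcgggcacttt
Neurod1: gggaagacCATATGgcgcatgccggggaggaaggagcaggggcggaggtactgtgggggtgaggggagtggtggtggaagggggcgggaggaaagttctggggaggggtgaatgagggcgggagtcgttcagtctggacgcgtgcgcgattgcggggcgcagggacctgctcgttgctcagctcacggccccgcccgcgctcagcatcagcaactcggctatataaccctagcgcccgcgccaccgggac
Neurod2: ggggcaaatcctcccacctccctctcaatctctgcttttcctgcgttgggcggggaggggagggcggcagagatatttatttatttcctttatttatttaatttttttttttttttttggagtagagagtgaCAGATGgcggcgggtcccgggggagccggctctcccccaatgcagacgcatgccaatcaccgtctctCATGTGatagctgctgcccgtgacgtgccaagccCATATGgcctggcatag
Of the 8 windows, 5 held CANNTG, which reads the same on both strands, against 66.2% of 32851 windows of this length. Tbr1 had CAGGTG 46 bases before its start, Reln had CACGTG 71 bases before, and Neurod1 had CATATG 242 bases before. Neurod2 had 3 matches, at 118, 51 and 17 bases before its start, and Neurod6 had 2, while Bcl11b, Fezf2 and Lhx1 had none. GGAATG, the core of the sites of TEAD factors, which are the DNA-binding partners of YAP, was in none of the 8 on either strand and in 12.6% of all windows. These letter matches show no binding.

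The deposited values were log2 intensities, and the 2 experiments appeared to have been normalized apart from each other. Array medians lay between 5.03 and 5.10 in the YAP experiment and between 4.30 and 4.42 in the Nf2 experiment, so levels are compared within an experiment only. The labels number the arrays without saying that they came from separate embryos, so the spread behind each p-value is that between arrays and may be partly technical. Xist, a gene of female cells, was high on some arrays of each group and low on others, so no group came from a single embryo throughout. Whether some arrays share an embryo is not known. Yap1 differed by 0.27 (SE 0.07, limma adjusted p = 0.0551) between YAP overexpression and its controls, and Nf2 by -0.38 (SE 0.09, adjusted p = 0.246) between Nf2 knockout and its controls. Neither manipulated gene was called, and whether their probes match the transgene or the deleted part is not known. Ccn1, a YAP reporter gene, read 8.34, 8.20 and 8.10 with YAP overexpression against 6.09, 6.52 and 6.23 in its controls. It read 8.44, 8.29 and 8.18 in Nf2 knockouts against 7.31, 7.25 and 7.30 in theirs. Of the tissue markers, Otx2 of forebrain and midbrain and En2 of the midbrain were above the array median on every YAP array, while En1, another midbrain gene, was below it on all 6. Emx1, a dorsal telencephalic gene, lay at percentiles 35.5 to 46.1 of all genes on the YAP arrays, below the median gene on each, and its relative Emx2 at 77.2 to 86.6. Emx1 and Emx2 were above the median on every Nf2 array, and En1 and En2 were below it.

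The first comparison asked how YAP overexpression changes gene expression in the early brain, here for the markers of early neurons. A gene is said to have fallen when limma's adjusted p over all 17097 genes was under 0.05. The fit took a single spread per gene over the arrays of both experiments, so the Nf2 arrays also enter the errors and p-values here. Of the 9 genes, 6 fell, where 3.64% of all genes were called lower and 2.67% higher. None rose, also at limma's unadjusted p under 0.05 (0 of 9, against 1479 of all 17097 genes). At that unadjusted p, 8 of the 9 were lower, against 1874 of all genes. The genes that fell were Lhx1, Tbr1, Bcl11b, Neurod1, Reln and Calb2, and their mean signal with YAP overexpression was between 29.7% and 58.9% of that of the controls. Neurod2, Neurod6 and Fezf2 were not called. With only the 6 YAP arrays in the fit, Reln and Lhx1 were not called either, and 361 of all genes were called in place of 1078. All 9 differences were negative, as were 51.5% of those of all genes, and the median was -0.77 on the log2 scale against -0.01 over all genes. In these whole tissue samples, fewer cells of a type and less RNA per cell cannot be told apart.

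**Figure D1:**
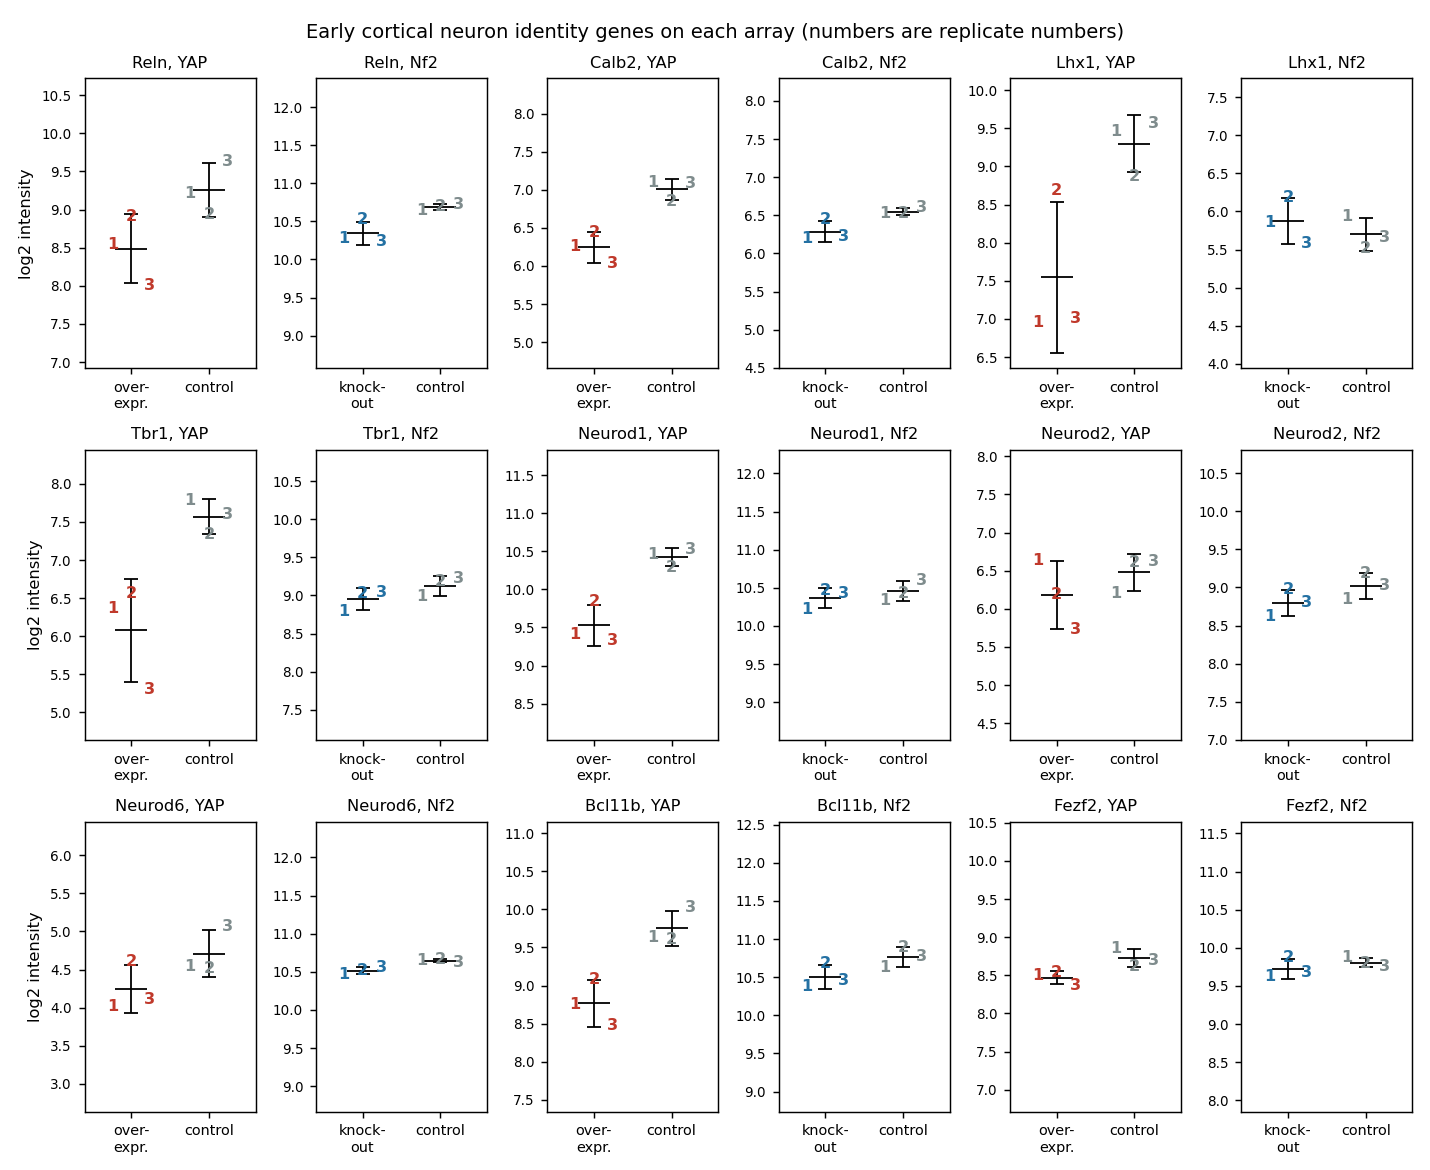
Log2 intensity of each of the 9 genes on every array, with a panel per gene and experiment. Digits are replicate numbers placed at the value of the array, the horizontal bar is the mean and the whiskers are the SD (n = 3), and every panel spans the same log2 range at its own height. In the YAP panels of Tbr1, Bcl11b, Neurod1 and Calb2 the overexpression arrays lie clear of the control arrays, by at least 0.41, and in most Nf2 panels the groups interleave.

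Among the Cajal-Retzius and preplate genes, Tbr1, a T-box transcription factor of preplate and deep-layer neurons, read 6.37, 6.56 and 5.30 with YAP overexpression, against 7.78, 7.33 and 7.60 in YAP controls. Every overexpression array was below every control array, by at least 0.77, and replicate 3 was the lowest. The means were 6.08 (SD 0.68, n = 3) and 7.57 (SD 0.23, n = 3), a log2 difference of -1.49 (SE 0.25, limma adjusted p = 0.00477), which is 35.5% of the control signal. This error also carries the spread of the Nf2 arrays, where the SD of Tbr1 was 0.14 in knockouts and 0.13 in controls. With only the 6 YAP arrays in the fit, limma's adjusted p was 0.0497.

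Lhx1, a LIM-homeodomain factor used by Cajal-Retzius cells and by neurons of several other brain regions, had the largest difference of the 9. It read 6.95, 8.69 and 7.0 with YAP overexpression, against 9.46, 8.87 and 9.56 in YAP controls. Replicates 1 and 3 of the overexpression group were far below all controls, while replicate 2 came within 0.18 of the lowest control. The difference of -1.75 (SE 0.38, limma adjusted p = 0.0172) was 3.36-fold and was not called without overexpression replicate 1 (adjusted p = 0.0673) or 3 (0.0693), or without control replicate 1 (0.0619) or 3 (0.0745). Its other probe set differed by -1.41 (SE 0.41), with 1 overexpression array at 7.49 above the control at 7.34, and was not called.

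Reln, the gene of reelin, read 8.54, 8.91 and 8.01 with YAP overexpression, against 9.21, 8.93 and 9.63 in YAP controls. The groups did not overlap, but overexpression replicate 2 was only 0.02 below control replicate 2. The difference was -0.77 (SE 0.21, limma adjusted p = 0.0458) and passed the threshold narrowly. It was not called without overexpression replicate 1 (adjusted p = 0.095) or 3 (0.14), without control replicate 1 (0.102) or 3 (0.167), or when its probe set was tested among all 45037 (0.0586).

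Calb2 encodes calretinin, a calcium-binding protein of Cajal-Retzius cells and of many interneurons. It read 6.26, 6.44 and 6.03 with YAP overexpression, against 7.09, 6.85 and 7.08 in YAP controls. The groups stood 0.41 apart and the spread within each was small (SD 0.21 and 0.14). The difference of -0.76 (SE 0.11, limma adjusted p = 0.00184) was as large as that of Reln with a smaller error, and it was called with any 1 array left out.

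Neurod1, a bHLH factor of differentiating neurons, read 9.41, 9.84 and 9.33 with YAP overexpression, against 10.46, 10.29 and 10.52 in YAP controls. The groups were 0.45 apart, and its difference was -0.90 (SE 0.13, limma adjusted p = 0.00183). Its second probe set differed by -0.75 (SE 0.10).

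Neurod2 and Neurod6 are relatives of Neurod1 that appear later, in postmitotic glutamatergic neurons. Neurod2 read 6.63, 6.19 and 5.73 with YAP overexpression, against 6.20, 6.61 and 6.62 in YAP controls, so that the highest of the 6 arrays was an overexpression array. The difference of -0.29 had a 95% interval from -0.72 to 0.13 (limma adjusted p = 0.469), and the gene's other probe set differed by -0.08. Neurod6 read 4.01, 4.60 and 4.11 with YAP overexpression, against 4.54, 4.52 and 5.06 in YAP controls. Each of these values lay below the median of its own array, so the signal was dim at E11.5. Its difference of -0.47 (95% interval from -0.81 to -0.12, adjusted p = 0.111) was not called, except without overexpression replicate 2 (-0.65, adjusted p = 0.0162).

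Bcl11b and Fezf2 encode zinc-finger factors that specify subcerebral projection neurons of the deep layers, with Fezf2 also active in cortical progenitors. Bcl11b read 8.75, 9.08 and 8.47 with YAP overexpression, against 9.63, 9.60 and 10.02 in YAP controls. The groups were 0.52 apart, and the difference of -0.98 (SE 0.15, limma adjusted p = 0.00316) was 50.6% of the control signal. All 4 of its probe sets were called lower, by between -1.19 and -0.89. Fezf2 read 8.50, 8.54 and 8.37 with YAP overexpression, against 8.85, 8.62 and 8.70 in YAP controls. These arrays did not overlap either, yet the difference was only -0.25 (95% interval from -0.44 to -0.06, limma adjusted p = 0.122) and was not called.

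By probe set, 9 of the 15 were called lower, against 2.30% of all probe sets, and the remaining 6 belonged to Lhx1, Reln, Neurod2, Neurod6 and Fezf2. Differences ran from -1.75 to -0.08, and all 15 were negative. The groups did not overlap for 11 of the 15 probe sets, against 10.3% of all probe sets lower in this way. They did not overlap for 7 of the 9 genes, all lower, against 1974 of all 17097 genes lower and 21.3% in either direction.

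**Figure D2:**
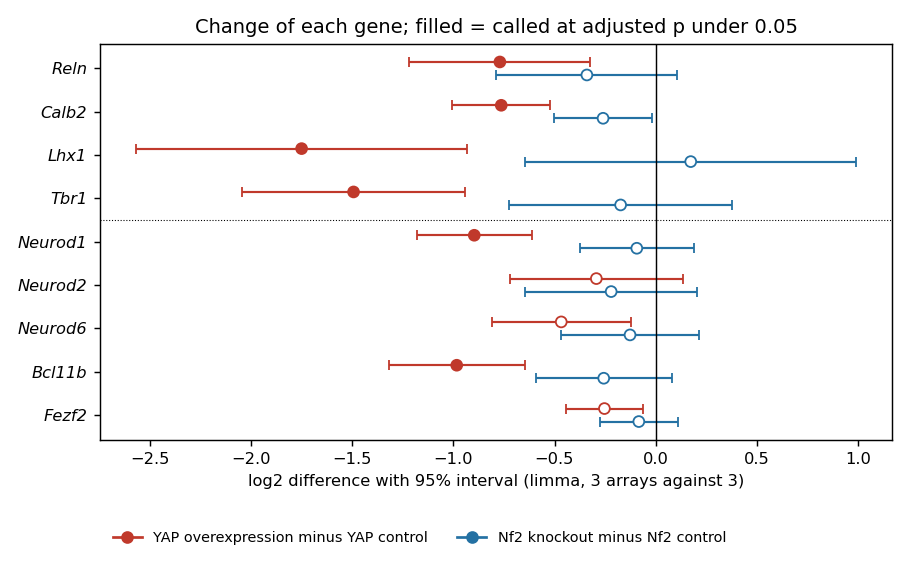
Log2 difference of each gene in both experiments (3 arrays against 3), with limma's 95% interval. The interval uses a single spread per gene, taken over the arrays of both experiments, so the red and blue intervals of a gene are equally wide. Red marks YAP overexpression minus YAP control, blue marks Nf2 knockout minus Nf2 control, filled points passed the adjusted p, and the dotted line separates the Cajal-Retzius and preplate genes above from the others below. The red points run from -1.75 for Lhx1 to -0.25 for Fezf2, and 8 of the 9 blue points lie between -0.34 and -0.08.

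The 4 Cajal-Retzius and preplate genes, Reln, Calb2, Lhx1 and Tbr1, were all called, against 2 of the 5 others. In 6 of the 14 alternatives this contrast was 2 of 4 against 2 of 5, because neither Reln nor Lhx1 was called with only the 6 arrays of the experiment, with a replicate block, or without overexpression replicate 1 or 3 or control replicate 1 or 3. Their differences averaged -1.19, against -0.58 for the others, with medians of -1.13 and -0.47. The gap between the averages was -0.62. It was -0.43 without Lhx1, -0.52 without Tbr1 and between -0.76 and -0.53 without any other single gene. Reln and Calb2 alone averaged -0.77, against -0.94 for Neurod1 and Bcl11b, a gap of 0.17 in the other direction. The gap between the 4 and the 5 genes also varied between arrays. After centring on the controls, the mean of the 4 minus the mean of the 5 was -0.70, -0.27 and -0.88 on the overexpression arrays, against 0.18, -0.20 and 0.02 on the control arrays. Overexpression replicate 2 was thus only slightly below control replicate 2. No p is given, since the genes were chosen with results known.

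The arrays of one group differed from each other in the same direction for most of the 9 genes. Overexpression replicate 2 held the highest value of its group for 8 of the 9 genes, and replicate 3 held the lowest for 7. Control replicate 2 held the lowest value of its group for 8 of the 9 genes, and control replicate 3 the highest for 6. The mean of all 9, centred on the controls, was -0.87, -0.48 and -1.21 with YAP overexpression, against 0.00, -0.18 and 0.18 in YAP controls. A list of 17 measured pan-neuronal genes gave -0.70, -0.30 and -0.90 with YAP overexpression, against -0.04, -0.18 and 0.22 in YAP controls, so the order of the arrays was the same. The 9 genes minus the pan-neuronal list came to -0.17, -0.18 and -0.31 with YAP overexpression, against 0.05, 0.00 and -0.04 in YAP controls. Ccn1 on overexpression replicate 2 lay between the other two, and Yap1, lowest on replicate 2 of both groups, read 11.35, 11.23 and 11.33 with YAP overexpression, against 11.07, 10.99 and 11.05 in YAP controls. Xist was high on 1 array of each group, overexpression replicate 3 (12.3) and control replicate 2 (12.81), the arrays that were lowest for most of the 9 genes, and between 5.04 and 5.38 on the others. The part of these levels in the order of the arrays was not tested.

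**Figure D3:**
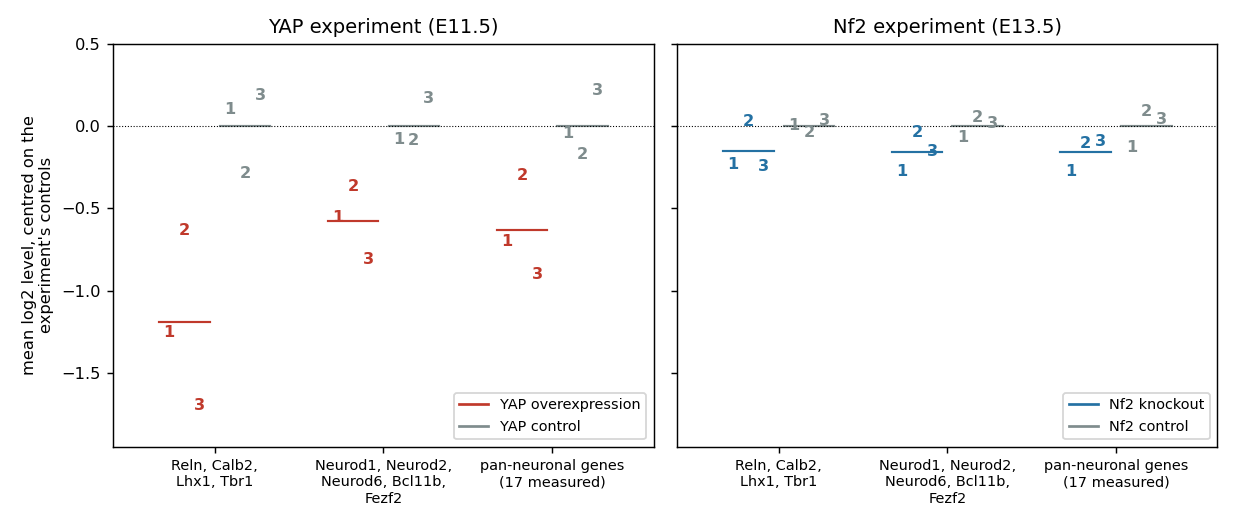
Mean log2 level of the Cajal-Retzius and preplate genes, of the other 5 genes and of the pan-neuronal list on each array, centred on the mean of the controls of the experiment. Digits are replicate numbers and lines are group means (n = 3), with the treated or knockout arrays left of the controls. The Cajal-Retzius and preplate genes reach -1.70 on YAP overexpression replicate 3 and -0.63 on replicate 2, and all Nf2 arrays stay between -0.28 and 0.10.

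Genes related to the 9 were counted from lists of known roles, which were chosen with earlier results of these data known. The shares over all genes are the same 3.64% called lower and 2.67% higher. Of 15 genes in the list called upstream neurogenic factors, whose order relative to the 9 was not tested, 14 fell and the other did not pass. Among them were Eomes, the T-box factor of intermediate progenitors (-1.22, SE 0.10), Mfng, a modifier of Notch (-1.0, SE 0.10), Neurog2, the proneural factor of cortical progenitors (-0.88, SE 0.16), and the antiproliferative gene Btg2 (-0.72, SE 0.12). The limma adjusted p of these 4 ran from 3.21e-05 to 0.00631. The median of the upstream list was -0.60, and that of the pan-neuronal list was -0.65, with 10 of 17 genes called lower and none higher. Its largest calls were Myt1l, a factor that maintains neuronal identity (-1.43, SE 0.28), the vesicular glutamate transporter gene Slc17a6 (-1.02, SE 0.15), the intermediate filament gene Ina (-0.89, SE 0.21) and the RNA-binding protein gene Elavl4 (-0.82, SE 0.08).

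Of 8 other measured Cajal-Retzius genes, 3 fell and 5 did not pass (median -0.51). The 3 were Calb1, a calcium-binding protein gene shared with other neurons (-1.20, SE 0.28), and the transcription factor genes Ebf2 (-0.74, SE 0.17) and Ebf3 (-0.71, SE 0.18), with limma adjusted p from 0.0206 to 0.0387. Trp73, a p53 relative and a more restricted marker of Cajal-Retzius cells, differed by -0.30 (SE 0.13, adjusted p = 0.208). Lhx5, a relative of Lhx1, differed by -0.23 (SE 0.10, adjusted p = 0.216). Ndnf, the gene of a secreted protein, was the 1 of the 8 with a positive difference, 0.35 (SE 0.14, adjusted p = 0.191), and its groups did not overlap. Of 11 genes of reelin receptors and signalling, Dab1, the adaptor phosphorylated in reelin-responsive cells, fell (-0.58, SE 0.10, limma adjusted p = 0.00425). The remaining 10 did not pass. The receptor genes Vldlr (0.21, SE 0.19) and Lrp8 (-0.20, SE 0.12) were among these, and the median was -0.13.

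Of 16 genes of subplate and deep-layer neurons, 4 fell and 12 did not pass (median -0.32). St18, a zinc-finger gene of neuronal differentiation (-1.56, SE 0.14), Bcl11a, the relative of Bcl11b (-1.17, SE 0.21), Etv1, a factor of layer 5 neurons (-0.67, SE 0.17), and Nr4a2, a nuclear receptor of subplate and of midbrain dopamine neurons (-0.63, SE 0.11), were the 4. The largest positive difference in the list was that of Pcp4, a calmodulin-binding protein gene, at 1.11 (SE 0.45, adjusted p = 0.195), with overlapping groups. Of 10 upper-layer genes, which belong to neurons born later, 2 fell and 8 did not pass (median -0.16). They were Cux2 (-0.84, SE 0.15) and Pou3f2 (-0.39, SE 0.09). Among 13 dorsal telencephalic progenitor genes, there were 5 falls, 2 rises and a median of -0.33. Lhx2 (-0.69, SE 0.08) and Emx2 (-0.68, SE 0.10), homeobox factors of the cortical field, and Fabp7, a radial glial lipid carrier (-0.66, SE 0.17), fell, and the Notch effector gene Hes1 rose (0.60, SE 0.10). In the cortical hem and dorsal midline, a source of Cajal-Retzius cells, 13 genes gave 2 rises, 1 fall and a median of 0.01. Bmp6 (1.34, SE 0.15) and Wnt5a (0.75, SE 0.12) rose and Rspo1 fell (-0.52, SE 0.13).

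Lists of other regions and cells in the tissue gave these values beside the 9 genes. Ventral telencephalic and GABAergic genes fell in 9 of 11 cases (median -0.99), for example the homeobox genes Dlx1 (-2.19, SE 0.38) and Dlx2 (-1.92, SE 0.22). Their summed intensity was 874.9 to 1254.4 with YAP overexpression, against 2551.4 to 4017.4 in YAP controls. Of 16 midbrain and diencephalon genes, 3 fell and 13 did not pass (median -0.09). Lhx9 (-1.36, SE 0.16), Th (-0.72, SE 0.13) and Tcf7l2 (-0.33, SE 0.09) were the 3, and the summed intensity was 5385.8 to 6087.7 with YAP overexpression, against 6101.0 to 6734.0 in YAP controls. Of 10 genes each of endothelium, microglia, and mesenchyme with meninges and pericytes, and of 6 erythroid genes, limma called none, and 0, 0, 2 and 2 were lower at an unadjusted p under 0.05. The 6 erythroid genes summed to 63523.2 to 69439.2 with YAP overexpression, against 71961.3 to 75357.9 in YAP controls. Of 8 choroid plexus genes Folr1 rose (1.5, SE 0.14), and of 8 surface ectoderm genes Krt19 rose (0.84, SE 0.11). The part of any of these cells in the falls of the 9 genes was not tested.

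**Figure D4:**
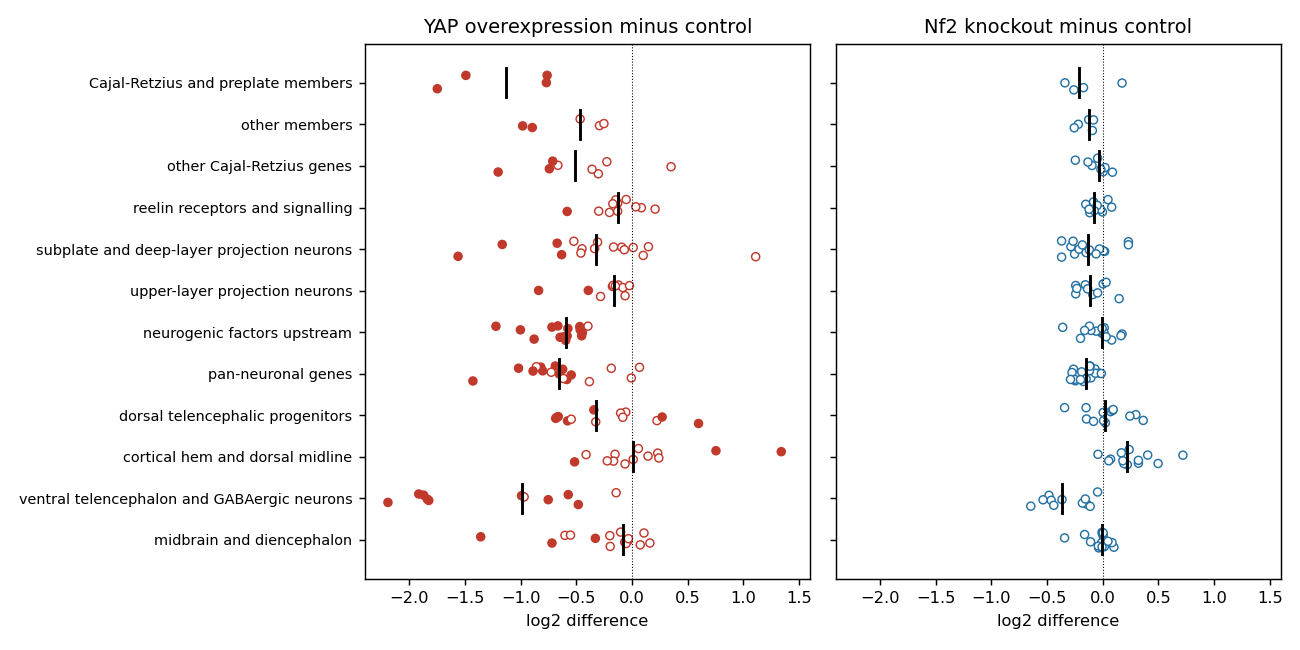
Log2 differences of the genes of 12 lists, as YAP overexpression minus control on the left and Nf2 knockout minus control on the right. Each point is a gene, filled where limma called it, and black bars are list medians. On the left the medians of the Cajal-Retzius and preplate genes (-1.13), the ventral telencephalon (-0.99), the pan-neuronal genes (-0.65) and the upstream neurogenic factors (-0.60) lie lowest, and on the right no point is filled.

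The genes whose profile over the 12 arrays lay nearest to the mean profile of each subgroup were also named. The measure was the mean absolute log2 distance, with each gene centred on the controls of the same experiment. Nearest to the Cajal-Retzius and preplate genes were Bcl11a (0.06), Zbtb20 (0.09), Cnr1, Tmem130 and Hecw1 (0.11 each), where the median gene was at 0.42. Each of the 4 genes themselves was farther from their mean, at 0.16 to 0.29. Bcl11a was picked as the nearest among all other measured genes, which favours a small distance. No conclusion is therefore drawn from its distance against those of the 4 genes. Nearest to the other 5 were Fbrsl1 (0.04), Atl1, Gdap1, D430019H16Rik and Srr (0.05 each), where the median gene was at 0.25.

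The second comparison asked what the loss of Nf2 changes in the dorsal telencephalon, where several of these genes mark the projection neurons. None of the 9 was called by limma, and 1, Calb2, had an unadjusted p under 0.05, where 0.252% of all genes were called and 3.09% were lower at that unadjusted p. Still, 8 of the 9 differences were negative, against 50.9% over all genes, and 14 of the 15 probe sets were. The median was -0.17, against 0.00 over all genes.

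Reln read 10.28, 10.52 and 10.23 in Nf2 knockouts, against 10.64, 10.69 and 10.72 in Nf2 controls. The groups did not overlap, and the 3 controls lay within a narrow band (SD 0.04). The difference of -0.34 was the largest of the 9 in size, with a 95% interval from -0.79 to 0.11 (limma adjusted p = 0.9). All these intervals and p-values use a single spread per gene, taken over the arrays of both experiments. For Reln the SD was 0.155 in Nf2 knockouts, against 0.45 with YAP overexpression and 0.35 in YAP controls. Calb2 read 6.19, 6.45 and 6.22 in Nf2 knockouts, against 6.52, 6.52 and 6.60 in Nf2 controls. These groups did not overlap either, and the interval of its difference of -0.26 ran from -0.50 to -0.02 (limma unadjusted p = 0.0369, adjusted p = 0.752).

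Neurod6, bright at this stage, read 10.47, 10.52 and 10.56 in Nf2 knockouts, against 10.65, 10.66 and 10.62 in Nf2 controls. It was the only other gene without overlap, and its difference was -0.13 (95% interval from -0.47 to 0.22). This interval also carries the spread of the YAP arrays, where the gene was dim. The SD of Neurod6 was 0.05 in Nf2 knockouts and 0.02 in Nf2 controls. With YAP overexpression it was 0.32, and in YAP controls 0.31. Lower values without overlap were thus found for 3 of the 9 genes, against 6.09% of all genes. The remaining genes interleaved.

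Deep-layer and preplate markers gave close values. Tbr1 read 8.79, 9.03 and 9.04 in Nf2 knockouts, against 8.98, 9.18 and 9.22 in Nf2 controls (difference -0.17, 95% interval from -0.72 to 0.38). Bcl11b read 10.38, 10.68 and 10.46 in Nf2 knockouts, against 10.63, 10.89 and 10.77 in Nf2 controls (-0.26, from -0.59 to 0.08). For both, replicate 1 was the lowest of its group in knockouts and in controls alike. Neurod1 differed by -0.09 (from -0.38 to 0.19), Neurod2 by -0.22 (from -0.65 to 0.21) and Fezf2 by -0.08 (from -0.27 to 0.11). Lhx1 was the 1 gene with a positive difference, 0.17 (from -0.65 to 0.99), while its other probe set differed by -0.12.

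Arrays with equal replicate numbers deviated together in the Nf2 experiment, with residual correlations of 0.27, 0.21 and 0.21 over genes, so pairs of arrays were also set side by side. Within pairs, 6 of the 9 genes were lower in the knockout in all 3 pairs, against 15.8% of all genes. By pair, 9, 6 and 9 genes were lower, with medians of -0.22, -0.14 and -0.18. With the pairs as a block limma again called none of the 9 (adjusted p from 0.806 to 0.977), and over all genes it called 21 in place of 43.

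The Cajal-Retzius and preplate genes averaged -0.15 and the others -0.16 in the Nf2 comparison, a gap of 0.01. On single arrays the gap was 0.04, 0.07 and -0.09 in Nf2 knockouts, against 0.07, -0.09 and 0.02 in Nf2 controls, so the groups overlapped. The pan-neuronal list had a median of -0.15, and all 17 of its genes had negative differences, with none called and 0 at an unadjusted p under 0.05. The 15 upstream neurogenic factors had a median of -0.01, with none called. The 1 of them with an unadjusted p under 0.05 was Nhlh1, a bHLH gene of newly formed neurons (-0.36, adjusted p = 0.115). Limma called no gene in any of the other lists. The 13 cortical hem genes had a median of 0.22, and 12 of them had positive differences, 5 at an unadjusted p under 0.05. Among them were Bmp6 (0.72, SE 0.15, limma adjusted p = 0.118) and Rspo2, a Wnt agonist (0.50, SE 0.10, adjusted p = 0.115). Summed intensities of the 10 microglial genes were 568.5 to 607.2 in Nf2 knockouts, against 455.1 to 492.0 in Nf2 controls. Those of the 6 erythroid genes were 16064.0 to 17740.6 in Nf2 knockouts, against 19325.6 to 19566.8 in Nf2 controls, and the 10 endothelial genes had a median of -0.28. The sums of the 11 ventral genes were 165.0 to 175.8 in Nf2 knockouts, against 168.9 to 313.8 in Nf2 controls. Xist, expressed in female cells, read 4.43, 12.07 and 11.92 in Nf2 knockouts, against 4.29, 12.25 and 4.04 in Nf2 controls, so 2 of 3 arrays against 1 of 3 were of female type. The part of these cells and of sex in the small differences of the 9 genes was not tested.

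Whether a gene moved differently in the 2 experiments was tested as the YAP difference minus the Nf2 difference in the same limma fit. None of the 9 passed (adjusted p from 0.124 to 0.962), where 0.281% of all genes were called, and 5 had an unadjusted p under 0.05, against 10.1% of all genes. These were Neurod1 (-0.80, SE 0.18), Tbr1 (-1.32, SE 0.36), Lhx1 (-1.92, SE 0.53), Bcl11b (-0.73, SE 0.22) and Calb2 (-0.50, SE 0.16). The fall of 6 genes in the YAP comparison and of none in the Nf2 comparison is therefore not shown to be a difference between the experiments. Stage, tissue and manipulation differ together between them and cannot be told apart.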

How the data were processed

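The values deposited by the authors are log2 intensities of probe sets, with 2 decimals. Per the labels' protocols, Trizol-extracted total RNA (100 ng) was amplified and labelled with biotin using a 3' IVT Express kit. Per the submitters' processing notes, RMA, Affymetrix Expression Console 1.1 and Partek 6.5 were used, with no roles given. Scanner files and detection calls were not used here, and the number of arrays limits the precision.

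Platform annotation of 2016 tied 28898 of 45037 probe sets to a single gene, and 28689 of these were updated to a current symbol by Entrez ID. Where a gene had several probe sets, the one brightest on average over the 12 arrays stood for it (17097 genes). All arrays entered a single limma fit (version 3.58.1, R 4.3.3) of 4 group means (8 residual and 4.096 prior degrees of freedom), with two-sided p-values adjusted by Benjamini-Hochberg over all genes. The same model was fitted to all probe sets. Exact permutation tests were not used, since 3 against 3 cannot give a two-sided p under 0.1. On simulated data with 200 changed genes among 17097, a log2 change of 0.5 in the YAP comparison was recovered for 56.3% of genes and a change of 1 for 93.4%, with 5.11% false calls. In the Nf2 comparison the rates were 56.5%, 93.9% and 5.15%. The simulated noise was independent between genes, whereas genes varied together between the arrays here, so these rates need not hold for the data.

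The 9 genes and the 16 other lists (196 genes, 182 measured) were chosen with earlier results of these data known. Of each other list up to 4 called genes with the largest YAP difference were named, besides Yap1, Nf2 and the 5 nearest genes per subgroup. Ccn1, Trp73, Lhx5, Ndnf, Vldlr, Lrp8, Pcp4, Nhlh1, Rspo2, Bmp6 in the Nf2 comparison, and Xist were named after their values were seen. Equal replicate numbers were taken as pairs where every residual correlation was over 0.1, which held in the Nf2 experiment only. Alternatives changed the probe set, the scaling, the filter on dim genes, the arrays fitted, array weights and the replicate block.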

Additional observations from a re-analysis of the deposited data

How the results depend on the processing

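Of the 9 genes, Tbr1, Calb2, Neurod1 and Bcl11b were called lower with YAP overexpression under all 14 alternatives, with adjusted p up to 0.0497. Reln was called under 7 and Lhx1 under 8 of the 14. Besides the omissions of single arrays given above, Reln was not called with array weights (adjusted p = 0.0673), and with only the 6 arrays of the experiment Reln (0.165) and Lhx1 (0.0903) were not called. Leaving out 1 array changed the number called from 6 to between 4 and 7. None of the 9 was called in the Nf2 comparison under any of the 14 alternatives (adjusted p from 0.379 to 1). The count over all genes went from 1078 to 361 with only the 6 YAP arrays, and to between 529 and 1241 with 1 array left out, being 688 and 678 without overexpression replicates 1 and 3 and 674 and 529 without control replicates 1 and 3. For Nf2 it went from 43 to 25 with only the 6 Nf2 arrays, 67 with array weights, and between 20 and 32 with 1 array left out, being 25 and 23 without control replicates 2 and 3 and 20 without knockout replicate 2. The replicate block gave 689 genes for YAP and 21 for Nf2, and left Reln (adjusted p = 0.139) and Lhx1 (0.0611) uncalled in the YAP comparison. Equal numbers were not taken as pairs there (residual correlations of 0.10, -0.20 and -0.20), but the labels do not say whether they were pairs. The block changed no other call among the 9. The test of the difference between the experiments called between 0 and 2 of the 9 genes with 1 array left out, and the 2 were Lhx1 (-2.50) and Neurod1 (-0.96) without YAP overexpression replicate 2. The difference of effects for Neurod2, -0.07, turned to 0.028 with the mean of its probe sets and ran from -0.2967 to 0.1533 with 1 array left out, being positive without YAP overexpression replicate 3, Nf2 control replicate 1 or Nf2 knockout replicate 2. The gap between the subgroups stayed between -0.79 and -0.48 for YAP with 1 array left out. The causes of these changes were not tested. Dim signals such as Neurod6 at E11.5 limit what could be seen, and no detection calls were used.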
